A study of Medicago sativa with 9 samples.

Results

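The metal-handling genes of alfalfa (Medicago sativa) leaves were followed over 0, 12 and 48 h of selenium treatment. The set holds 229 genes: every gene whose description in the deposited table names a zinc, iron, copper or other metal transporter, NRAMP, ferritin, nicotianamine, metallothionein, a metal tolerance protein, a vacuolar iron transporter or a heavy metal domain, and whose level was at least 1 FPKM (a fragment count scaled for gene length and library size) in at least 3 of the 9 libraries. In all, 544 listed genes carry such a description, and 50878 of 164632 listed genes passed the same minimum. Members were picked by description and level, not by their changes over time, but the rule was set with earlier results of these data known. They fall into 12 families. The larger ones are 95 heavy metal domain proteins, 88 of them HIPP proteins, 29 genes described as zinc transporters, 26 metal tolerance proteins and 15 NRAMP transporters. Then come 13 metal-nicotianamine transporters, 10 copper transporters, 9 metallothioneins, 9 vacuolar iron transporters, 8 ferritins and 8 copper chaperones. The smallest are 4 nicotianamine synthases and 3 members of a ZIP zinc/iron transport family. Descriptions are by likeness to other plants, 223 of the 229 to Medicago truncatula, so each name is that of the nearest annotated protein.

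Plants need iron, zinc, copper and manganese as cofactors but must keep the free ions low, because free iron and copper drive the formation of reactive oxygen. ZIP and NRAMP proteins move metal ions into the cytosol, metal tolerance proteins and vacuolar iron transporters move them out of it into compartments, and ferritin stores iron in the plastids of leaves. Nicotianamine is the small chelator that carries iron, zinc and copper along the veins, and YSL proteins transport its metal complexes. Metallothioneins, copper chaperones and HIPP proteins, which are heavy metal-associated isoprenylated plant proteins, bind metal ions inside the cell.

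Poly(A) RNA of leaves was sequenced in 3 groups of 3 libraries: leaves at 0 h, leaves after 12 h and leaves after 48 h of Se(IV) given at 100 mg per kg. All 9 libraries belong to the Se(IV) series; untreated leaves at 12 or 48 h were not analysed here, so treatment and sampling time cannot be told apart. Nothing in the labels ties the 3 libraries of a time to separate plants, and the p-values cover only the spread among these libraries, which may be technical in origin.

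Library totals lay between 39936347 and 56137145 counts, and the members took 0.339% to 0.733% of them. The table places genes on 4 copies of each of 8 chromosomes, and how reads that match several copies were shared out is not given in the sources used here. Values of single copies are therefore uncertain. Changes of members are given both per gene and for the counts summed over genes with the same description on the same numbered chromosome. These sums are called summed copies. The libraries of a time were not equally alike. Over 3482 sets of 4 copies, the median share of a set's reads lying on different copies in 2 libraries was 9.25% to 9.39% between the 12 h libraries and 10.4% between 48 h replicates 1 and 3, against 20.2% to 23.9% between all other pairs. Leghemoglobin, a nodule marker, had no count in any of its 43 listed genes. The summed level of the 86 tested among 101 photosynthetic marker genes was 100552 to 154877 FPKM at 0 h. It was 92845 to 105289 FPKM at 12 h and 120316 to 169831 FPKM at 48 h. Of these 86, 36 were called lower at 12 h than at 0 h, beside 4.29% of all genes. Between 48 h and 12 h, 49 were called higher, beside 6.96% of all genes. For the 14 tested of 63 phloem genes, the sum was 47.3 to 977 FPKM at 0 h. It was 426 to 1050 FPKM at 12 h and 4.85 to 157 FPKM at 48 h. For the 16 tested of 109 xylem genes it was 10.9 to 43.4, 6.80 to 9.78 and 10.4 to 36.3 FPKM. Of these 16, 2 were called lower at 12 h than at 0 h and 2 higher at 48 h than at 12 h. Of the 14 phloem genes, 1 was called lower at 48 h than at 12 h, beside 3.61% of all genes. Of 78 nodule or root genes, 75 had no count in any library. The part of these shifts in the results was not tested, and in whole leaves fewer cells of a type and less RNA per cell cannot be told apart.

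At 12 h against 0 h, edgeR's quasi-likelihood test called 16 of the 229 members (6.99%) at an adjusted p under 0.05, beside 5.88% of all genes tested. Of these, 3 were higher (background 1.58%) and 13 were lower (background 4.29%), and the median log2 change was -0.27 for members and -0.01 for all genes. Scaled counts that did not overlap between the times were found for 36 higher and 52 lower members (15.7% and 22.7%, beside 19.0% and 17.8% of all genes). Relative to 0 h, 3 members were called at 48 h, all of them higher, which is 1.31% beside 1.14% of all genes (0.647% higher and 0.497% lower); 44 members had an unadjusted p under 0.05. Ranges that did not overlap were found there for 31 higher and 25 lower members (13.5% and 10.9%, beside 11.2% and 11.8%). Between 48 h and 12 h, 29 members were called (12.7%), beside 10.6% of all genes. Of these, 22 were higher (background 6.96%) and 7 were lower (background 3.61%), and ranges did not overlap for 68 higher and 41 lower members (29.7% and 17.9%, beside 20.8% and 23.7%). With library totals in place of TMM factors, that split was 13 higher and 12 lower, and at 12 h against 0 h it was 6 higher and 10 lower. The FPKM values use library totals, under which the log2 change of all genes has a median of 0.39 for 12 h over 0 h, -0.14 for 48 h over 0 h and -0.54 for 48 h over 12 h. The log2 changes given here use TMM factors, which give -0.01, -0.05 and -0.05 in place of those medians. The 12 h libraries enter both the first and the last comparison, and the 0 h libraries both comparisons with 0 h.

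**Figure D1:**
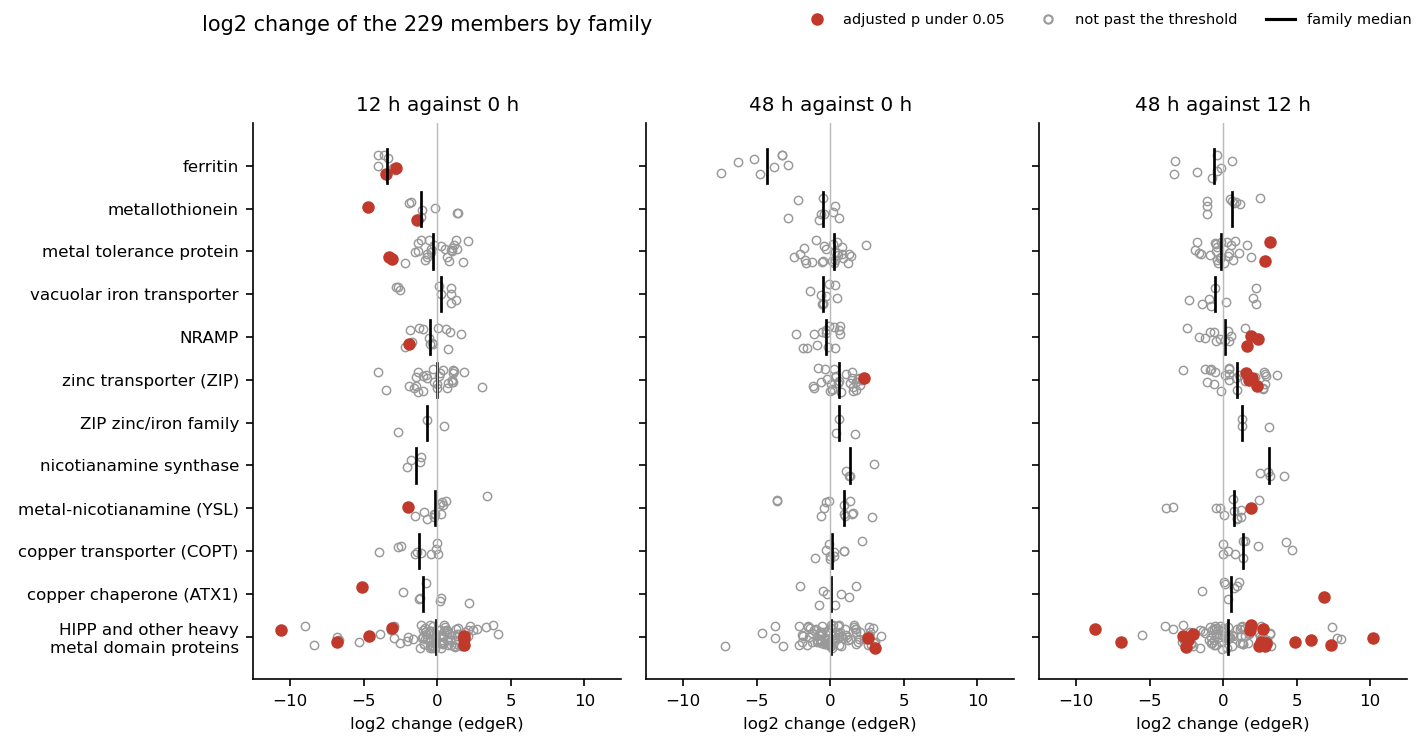
log2 change (edgeR) of each of the 229 members, by family, in the 3 comparisons; each point is a gene, filled where the adjusted p is under 0.05, and the bar is the family median. All 8 ferritins lie left of 0 in both comparisons with 0 h, and most called points lie left of 0 at 12 h against 0 h and right of it at 48 h against 12 h.

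Summing the copies gave 86 groups that hold members. Of these, 13 were called at 12 h against 0 h (15.1%, beside 14.1% of all 18292 such groups), 2 higher and 11 lower (background 5.31% and 8.83%). Relative to 0 h, 6 were called at 48 h (6.98%, beside 7.63%), 4 higher and 2 lower (background 3.89% and 3.74%). Relative to 12 h, 24 were called at 48 h (27.9%, beside 22.7%), 21 higher and 3 lower (background 12.9% and 9.86%). Together these are 43 called changes in 25 groups, and 20 of the 43 held in each of the 9 fits that leave out 1 library. The 34 members called in at least 1 comparison gave 48 called changes, of which 7 held in all such fits. Leaving out 1 library still keeps 12 h libraries that are alike in copy usage. Those fits therefore cannot show whether a change rests on what the 12 h libraries share. A further fit summed the like 12 h libraries to 1, and 48 h replicates 1 and 3 to 1. With 1 library left at 12 h, it cannot decide which of the 43 or 48 changes pass. Whether they hold with like libraries counted once is therefore not known. In that fit the sizes of the 43 moved by -0.23 to 0.28 on the log2 scale. No called change turned its sign under library totals, the replicate block, that summing or any left-out library.

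**Figure D2:**
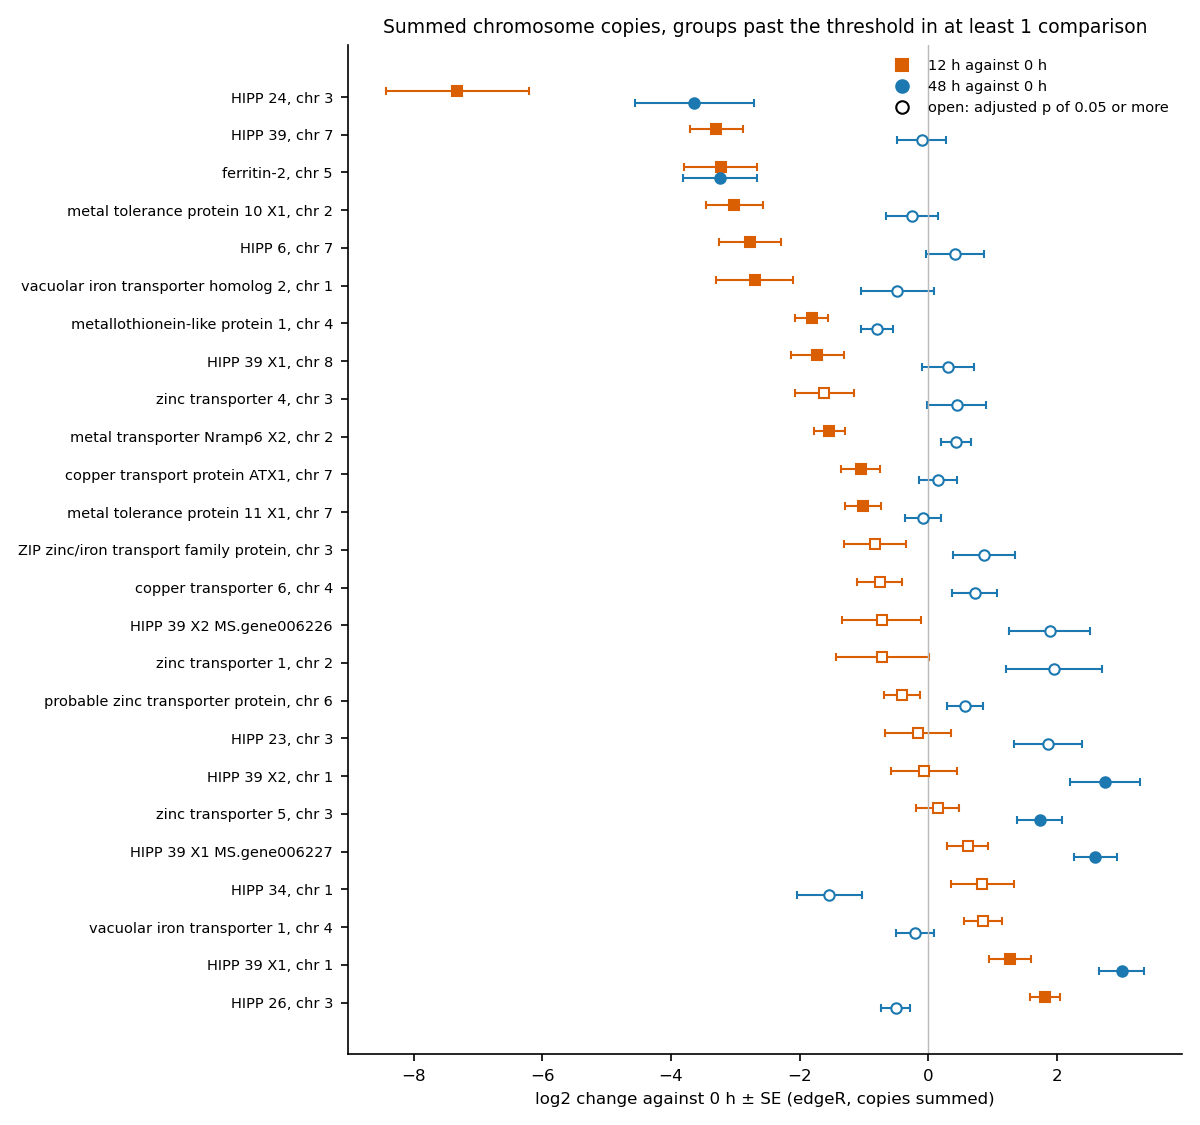
log2 change ± SE (edgeR) at 12 h and at 48 h, each against 0 h, for the 25 groups of summed copies called in at least 1 of the 3 comparisons; filled symbols have an adjusted p under 0.05. HIPP 24 and ferritin-2 stay left of 0 at both times, while HIPP 39 on chromosome 7, metal tolerance protein 10 and HIPP 6 lie far left at 12 h and near 0 at 48 h.

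Ferritin, the iron store of the plastid, was lower at both later times. The summed FPKM of its 8 members was 3121, 565 and 829 in the 3 libraries of 0 h, 205, 187 and 212 at 12 h, and 97.4, 58.3 and 209 at 48 h. No library of a later time reached the lowest library of 0 h, and the first library of 0 h stood far above the other two. All 8 members had a negative log2 change at 12 h and at 48 h against 0 h, with medians of -3.43 and -4.30, and the direction of both medians was the same with library totals. Without 0 h replicate 1 the medians were -1.87 and -2.62, and 5 of the 8 were negative at 12 h and all 8 at 48 h. At 12 h against 0 h, 2 of the 8 were called lower (25%, beside 4.29% of all genes). Both are copies of ferritin-2 and may share reads, so they are not 2 separate results. At 48 h against 0 h none was called lower (beside 0.497%), although 7 had an unadjusted p under 0.05.

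Ferritin-2 on chromosome 5 carried most of that level. Its 4 copies summed to 2102, 535 and 794 FPKM at 0 h, 154, 153 and 173 FPKM at 12 h, and 89.1, 56.0 and 199 FPKM at 48 h. The log2 change was -3.23 ± 0.57 at 12 h against 0 h (SE, edgeR adjusted p = 0.00813) and -3.23 ± 0.57 at 48 h against 0 h (edgeR adjusted p = 0.0159). The change at 12 h held in all 9 fits that leave out 1 library; that at 48 h was lost without 48 h replicate 1 (edgeR adjusted p = 0.0802). Leaving out 0 h replicate 1 gave the smaller values of -2.54 and -2.53 (edgeR adjusted p = 0.0162 and 0.0285). Between 48 h and 12 h the level did not differ by the test (log2 change -0.01 ± 0.52). With the like libraries summed, the 2 changes against 0 h were -3.22 and -3.37 (sizes only, as that fit cannot decide the calls).

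Among the single copies of ferritin-2, MS.gene071223 had 628, 179 and 181 FPKM at 0 h, 40.2, 19.2 and 52.5 FPKM at 12 h, and 39.6, 18.2 and 69.2 FPKM at 48 h. Its log2 change at 12 h against 0 h was -3.48 ± 0.69 (edgeR adjusted p = 0.0272), and it held in 4 of the 9 fits that leave out 1 library. The call was lost without 0 h replicate 1, any 12 h replicate or 48 h replicate 1, with an adjusted p of at most 0.110, and the value was -2.70 without 0 h replicate 1. MS.gene94217 was the steadiest copy at 0 h, with 220.2, 199.7 and 299 FPKM, against 31.2, 46.4 and 56.2 FPKM at 12 h and 16.3, 8.96 and 49.4 FPKM at 48 h. Its log2 change at 12 h was -2.82 ± 0.61 (edgeR adjusted p = 0.0352). That call held only without 48 h replicate 2 or without 48 h replicate 3, and the adjusted p reached 0.139 otherwise; with library totals it was -2.41 (edgeR adjusted p = 0.0574). The copy MS.gene76087 had no count in 12 h replicate 3 and 48 h replicate 2, while the other 3 copies had in those libraries 52.5 to 64.7 FPKM and 8.96 to 28.9 FPKM.

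The ferritin and ferritin-3 genes on chromosome 4 rested on a single library at 0 h. Ferritin-3 summed to 707, 23.5 and 12.0 FPKM at 0 h, 38.0, 28.5 and 32.1 FPKM at 12 h, and 5.81, 1.88 and 5.98 FPKM at 48 h. Its 48 h libraries lay below all others, and the 12 h libraries lay within the range of 0 h. The log2 change at 48 h against 0 h was -5.58 ± 1.47 and missed the threshold (edgeR adjusted p = 0.0545). The pair of genes described as ferritin summed to 312, 7.33 and 22.6 FPKM at 0 h, 13.3, 5.64 and 6.60 FPKM at 12 h, and 2.504, 0.406 and 3.97 FPKM at 48 h, with an edgeR adjusted p = 0.0531 at 48 h against 0 h.

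**Figure D3:**
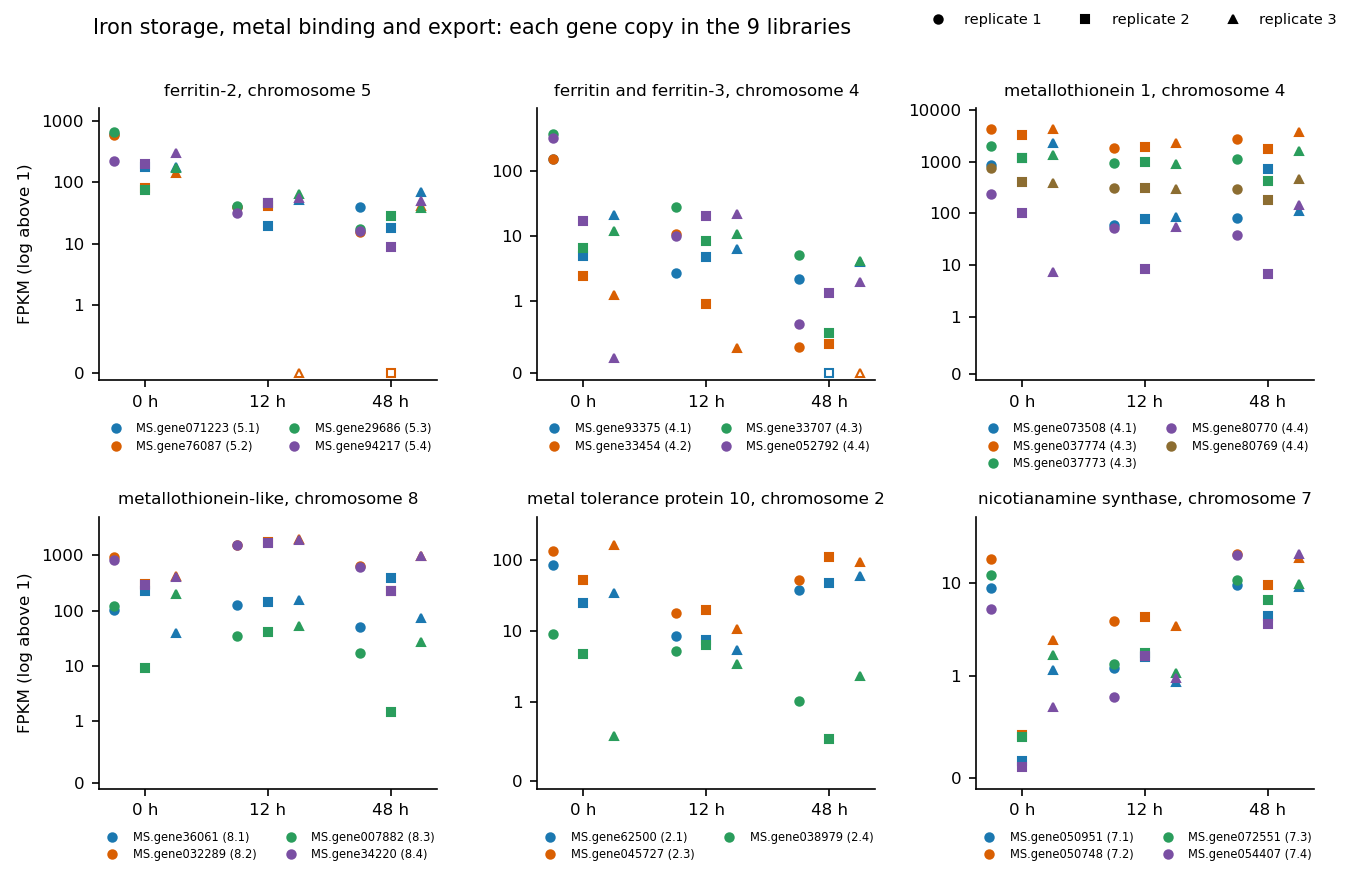
FPKM of each gene copy in each library at 0, 12 and 48 h, on an axis that is logarithmic above 1; colours are copies, marker shapes are replicates and open markers are genes with no count. The 4 ferritin-2 copies lie at 76.1 FPKM or more at 0 h and at 69.2 FPKM or less later, and 0 h replicate 1 stands apart in the chromosome 4 ferritins and in nicotianamine synthase.

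Metallothioneins, small cysteine-rich proteins that bind copper and zinc, were the most abundant members. Their 9 genes summed to 10199, 6922 and 9417 FPKM at 0 h, 6443, 6993 and 7773 FPKM at 12 h, and 5565, 3925 and 8086 FPKM at 48 h. The times overlapped in this sum. Metallothionein-like protein 1 on chromosome 4 fell at 12 h: its 3 copies summed to 5439, 4538 and 6593 FPKM at 0 h, 1933, 2029 and 2449 FPKM at 12 h, and 2804, 2473 and 3935 FPKM at 48 h. Its log2 change was -1.81 ± 0.25 at 12 h against 0 h (edgeR adjusted p = 0.00302) and held without each library in turn. At 48 h against 0 h it was -0.79 ± 0.25 (edgeR adjusted p = 0.091), although all 48 h libraries lay below all 0 h libraries.

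Set against 12 h, the same group at 48 h was higher by 1.02 ± 0.25 on the log2 scale (edgeR adjusted p = 0.0206). That call was lost without 12 h replicate 1 or 2 or 48 h replicate 1 or 3, with an adjusted p of at most 0.0844, and with library totals, where the log2 change was 0.48. MS.gene037774, the member with the highest mean level of all, had 4344, 3249 and 4259 FPKM at 0 h, 1822, 1944 and 2310.1 FPKM at 12 h, and 2683, 1746 and 3679 FPKM at 48 h. Its log2 change at 12 h against 0 h was -1.35 ± 0.29 (edgeR adjusted p = 0.0368), with an adjusted p of up to 0.152 when 1 library was left out; the call held without 0 h replicate 2, 48 h replicate 2 or 48 h replicate 3 and was lost without any other, and with library totals (-0.95, edgeR adjusted p = 0.1003). Another copy, MS.gene073508, changed the most, with 855, 1186 and 2327 FPKM at 0 h, 60.5, 76.1 and 84.9 FPKM at 12 h, and 82.0, 720.2 and 109 FPKM at 48 h. The log2 change at 12 h against 0 h was -4.73 ± 0.98 (edgeR adjusted p = 0.0316); it was lost without 0 h replicate 2 or 3 or any 12 h replicate, with an adjusted p of at most 0.129, and was -4.11 without 0 h replicate 3. Its 48 h replicate 2 stood apart from the other libraries of that time.

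The type 3 metallothioneins on chromosome 8 had the opposite order. They summed to 1996, 833 and 1079.5 FPKM at 0 h, 3242, 3679 and 4118 FPKM at 12 h, and 1319, 840.5 and 2044 FPKM at 48 h, so that every 12 h library lay above every other library. The log2 change at 12 h against 0 h was 1.09 ± 0.36 and did not pass (edgeR adjusted p = 0.0795), nor did that at 48 h against 12 h (-0.91 ± 0.36, edgeR adjusted p = 0.105). Type 1 metallothionein on chromosome 4 had a log2 change of -1.10 ± 0.38 at 12 h against 0 h, which did not pass either (edgeR adjusted p = 0.0904).

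Metal tolerance proteins export metal ions from the cytosol, and the close relatives of metal tolerance proteins 10 and 11 carry manganese in Arabidopsis. The summed FPKM of the 26 members was 413, 246 and 331 at 0 h, 152, 163 and 173 at 12 h, and 234, 249 and 349 at 48 h, with every 12 h library below every other. Metal tolerance protein 10 on chromosome 2 made up most of the difference. Its copies summed to 230.3, 82.6 and 198 FPKM at 0 h, 31.9, 33.7 and 19.5 FPKM at 12 h, and 91.9, 158 and 155 FPKM at 48 h. The level at 12 h was lower than at 0 h by a log2 change of -3.01 ± 0.44 (edgeR adjusted p = 0.00358), and at 48 h it was higher than at 12 h by 2.76 ± 0.43 (edgeR adjusted p = 0.00351). Both held without each library in turn, and at 48 h against 0 h the log2 change was -0.26 ± 0.41. With the like libraries summed, the first 2 values were -3.03 and 2.89 (sizes only).

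Single copies of this gene, 2 in number, were called on their own. MS.gene62500 had 85.1, 25.1 and 33.8 FPKM at 0 h, 8.64, 7.56 and 5.38 FPKM at 12 h, and 38.0, 47.0 and 59.9 FPKM at 48 h, with log2 changes of -3.09 ± 0.47 at 12 h against 0 h and 3.19 ± 0.47 at 48 h against 12 h (edgeR adjusted p = 0.0108 and 0.00764). The first was lost without 12 h replicate 1 or 2 (edgeR adjusted p = 0.0509 and 0.0551) and was -2.48 without 0 h replicate 1. MS.gene045727, the most abundant metal tolerance protein, had 136, 52.7 and 163 FPKM at 0 h, 18.0, 19.8 and 10.7 FPKM at 12 h, and 52.9, 110.4 and 92.6 FPKM at 48 h. Its log2 change at 12 h against 0 h was -3.27 ± 0.54 (edgeR adjusted p = 0.0142), lost without 12 h replicate 1 or 2 with an adjusted p of at most 0.0654. Metal tolerance protein 11 on chromosome 7 was lower at 12 h than at 0 h by -1.01 ± 0.28 (edgeR adjusted p = 0.0447). That call held only without 48 h replicate 2 or 3, and library totals gave -0.57 (edgeR adjusted p = 0.211).

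Vacuolar iron transporters load iron into the vacuole. The homolog 2 group on chromosome 1 was low throughout, with 9.55, 5.05 and 2.38 FPKM at 0 h, 1.47, 1.29 and 0.537 FPKM at 12 h, and 3.69, 2.59 and 4.92 FPKM at 48 h. The 12 h libraries lay below all others, with a log2 change of -2.70 ± 0.60 against 0 h (edgeR adjusted p = 0.020). That was lost without 0 h replicate 1 or 12 h replicate 1 or 2, with an adjusted p of at most 0.069. It was higher at 48 h than at 12 h by 2.22 ± 0.59 (edgeR adjusted p = 0.0287), a call lost without any 12 h replicate or without 48 h replicate 1 or 3 (adjusted p of at most 0.080) and with library totals, where it was 1.68 (edgeR adjusted p = 0.0654). Vacuolar iron transporter 1 on chromosome 4 took the other course, with 10.3, 17.04 and 7.32 FPKM at 0 h, 32.1, 24.4 and 26.9 FPKM at 12 h, and 9.30, 9.62 and 9.37 FPKM at 48 h. It was lower at 48 h than at 12 h by -1.06 ± 0.30 on the log2 scale (edgeR adjusted p = 0.0347). That call was lost without any 12 h replicate or without 48 h replicate 1 or 3 (adjusted p of at most 0.113), and the difference at 12 h against 0 h, 0.85 ± 0.30, did not pass (edgeR adjusted p = 0.0914). Its most abundant copy, MS.gene95837, had 2.69, 4.59 and 1.95 FPKM at 0 h, 8.40, 7.82 and 6.20 FPKM at 12 h, and 2.34, 2.68 and 3.25 FPKM at 48 h and was not called.

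NRAMP transporters carry divalent metal ions, iron and manganese among them, across membranes into the cytosol. The Nramp6 group on chromosome 2 was lowest at 12 h: its 3 copies summed to 19.0, 21.9 and 16.3 FPKM at 0 h, 10.8, 7.23 and 8.45 FPKM at 12 h, and 20.9, 29.8 and 20.9 FPKM at 48 h. The 12 h libraries did not overlap with either other time. The test gave a log2 change of -1.54 ± 0.24 at 12 h against 0 h (edgeR adjusted p = 0.00499) and 1.96 ± 0.24 at 48 h against 12 h (edgeR adjusted p = 0.00127). Both held without each library in turn and with library totals, where they were -1.09 and 1.40. With the like libraries summed they were -1.54 and 2.09 (sizes only).

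All 3 copies of Nramp6 were called higher at 48 h than at 12 h. MS.gene067471, called lower at 12 h, had 5.33, 8.26 and 8.79 FPKM at 0 h, 3.33, 2.27 and 2.12 FPKM at 12 h, and 6.71, 7.62 and 6.22 FPKM at 48 h (log2 change -1.94 ± 0.36 at 12 h against 0 h, edgeR adjusted p = 0.0209). The call was lost without any 12 h replicate, with an adjusted p of at most 0.0977. Its call at 48 h against 12 h (1.87, edgeR adjusted p = 0.0172) was lost without 12 h replicate 2 or 3 or 48 h replicate 1, with an adjusted p of at most 0.0771. That of MS.gene85960 (1.61, edgeR adjusted p = 0.034) held only without a 0 h replicate, with an adjusted p of at most 0.118, and not with library totals (1.10, edgeR adjusted p = 0.0954). MS.gene83599 had 6.999, 5.46 and 3.95 FPKM at 0 h, 2.73, 1.09 and 2.61 FPKM at 12 h, and 6.74, 10.1 and 7.08 FPKM at 48 h. Its log2 change at 48 h against 12 h was 2.36 ± 0.43 (edgeR adjusted p = 0.015) and held without each library in turn. The NRAMP gene of highest mean level, MS.gene012133 on chromosome 8, had 10.9, 13.0 and 6.86 FPKM at 0 h, 10.0, 9.17 and 41.6 FPKM at 12 h, and 6.03, 6.35 and 12.2 FPKM at 48 h. Its 12 h replicate 3 stood far above all other libraries.

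Zinc transporters of the ZIP type bring zinc into the cytosol. The family here holds 29 genes described as zinc transporters. Of these, 2 are described as probable zinc transporter protein DDB_G0291141, which does not name the ZIP type. The 29 members summed to 228, 169 and 222 FPKM at 0 h, 458, 384 and 283 FPKM at 12 h, and 511, 415 and 473 FPKM at 48 h. Every library of a later time lay above every 0 h library on this scale, which uses library totals. At 48 h against 0 h, 22 of the 29 had a positive log2 change, with a median of 0.59. There 1 was called higher (3.45%, beside 0.647% of all genes) and 0 lower (beside 0.497%). Between 48 h and 12 h, 4 were called higher (13.8%, beside 6.96% of all genes) and 0 lower, with a median log2 change of 0.92. Those 4 include copies of zinc transporter 5, which may share reads. At 12 h against 0 h none was called (beside 5.88% of all genes), and 5 had an unadjusted p under 0.05. The median was -0.02, against 0.37 with library totals.

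Zinc transporter 5 on chromosome 3 was the called group at 48 h. Its 4 copies summed to 97.9, 49.6 and 83.5 FPKM at 0 h, 155, 117 and 72.5 FPKM at 12 h, and 277, 242 and 203 FPKM at 48 h. The 48 h libraries lay above all others. Relative to the earlier times, the log2 change was 1.73 ± 0.35 at 48 h against 0 h (edgeR adjusted p = 0.0251) and 1.59 ± 0.35 at 48 h against 12 h (edgeR adjusted p = 0.0136). The second held without each library in turn. The first was lost without 0 h replicate 2 or 3, 12 h replicate 2, or 48 h replicate 1 or 3, with an adjusted p of 0.0502 to 0.0935. With the like libraries summed the 2 values were 1.77 and 1.65 (sizes only).

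Of its copies, MS.gene70500 was called at 48 h against 0 h. It had 15.3, 6.37 and 7.70 FPKM at 0 h, 27.5, 21.1 and 14.8 FPKM at 12 h, and 54.3, 37.6 and 42.3 FPKM at 48 h, a log2 change of 2.28 ± 0.39 (edgeR adjusted p = 0.0432). That call held only without 0 h replicate 1 or 48 h replicate 2, and the adjusted p was at most 0.139; with library totals it was 2.17 (edgeR adjusted p = 0.0576). MS.gene044300 had 28.9, 10.9 and 31.7 FPKM at 0 h, 24.9, 19.3 and 11.9 FPKM at 12 h, and 69.4, 81.5 and 52.0 FPKM at 48 h. It was higher at 48 h than at 12 h by 2.32 ± 0.49 on the log2 scale (edgeR adjusted p = 0.0247), a call lost without any 12 h replicate or without 48 h replicate 1 (adjusted p of at most 0.0889).

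Of the other zinc transporters, zinc transporter 11 on chromosome 3 did not pass. Its copies summed to 61.9, 76.8 and 91.7 FPKM at 0 h, 254, 223 and 168 FPKM at 12 h, and 163, 96.9 and 184 FPKM at 48 h, without overlap between either later time and 0 h. The log2 change was 1.04 ± 0.31 at both times against 0 h (edgeR adjusted p = 0.0581 and 0.080). The most abundant ZIP gene, MS.gene04215, is one of these copies, with 19.9, 30.3 and 23.2 FPKM at 0 h, 70.8, 85.1 and 50.9 FPKM at 12 h, and 83.8, 36.8 and 78.7 FPKM at 48 h. Zinc transporter 1 on chromosome 2 and zinc transporter 4 on chromosome 3 were called higher at 48 h than at 12 h, by 2.67 ± 0.76 and 2.05 ± 0.47 on the log2 scale (edgeR adjusted p = 0.0372 and 0.0163). Zinc transporter 1 was lost without any 12 h replicate or 48 h replicate 1 or 3, and zinc transporter 4 without 12 h replicate 1 or 2, with an adjusted p of at most 0.112 and 0.0656. Library totals gave 2.14 for zinc transporter 1 (edgeR adjusted p = 0.0619), and zinc transporter 4 was 1.296 without 48 h replicate 2. The ZIP zinc/iron transport family group on chromosome 3 was higher at 48 h than at 12 h by 1.69 ± 0.49 (edgeR adjusted p = 0.0399). It held only without 0 h replicate 3 or 48 h replicate 3. Without 48 h replicate 2 it was 0.94, and library totals gave 1.10 (edgeR adjusted p = 0.0874). Its most abundant copy, MS.gene012814, had 33.9 FPKM in 48 h replicate 2, against 15.3 and 10.3 FPKM in the others of 48 h.

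**Figure D4:**
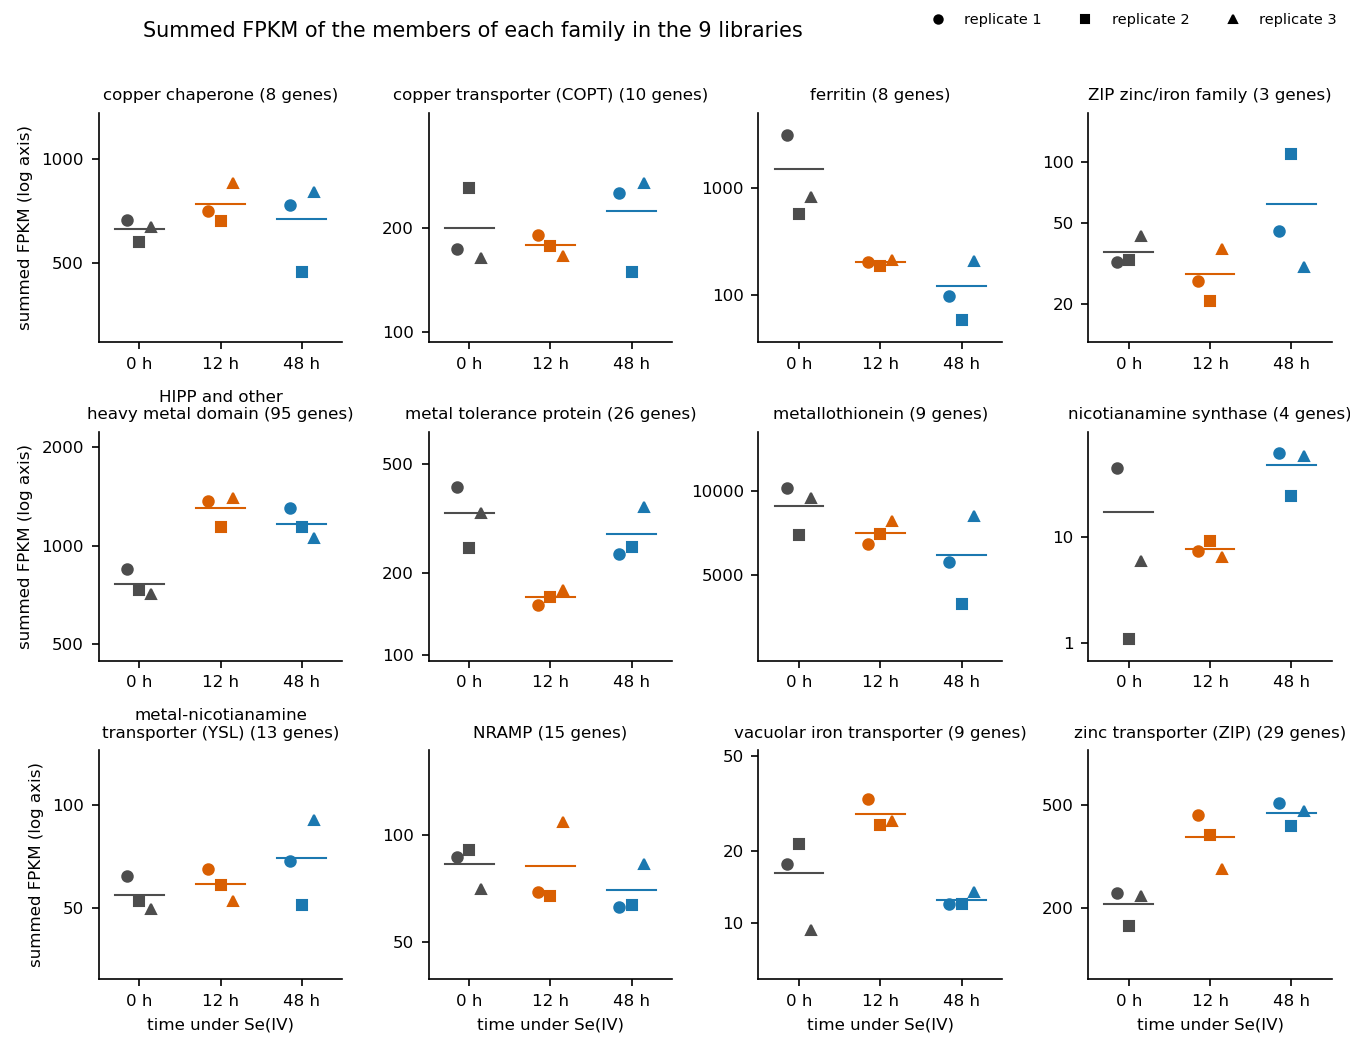
Summed FPKM of the members of each family in each library (log axis, a separate scale per family) at 0, 12 and 48 h; shapes are replicates and lines are means of 3. Ferritin falls to 212 FPKM or less at the later times, the zinc transporters lie above 0 h at both later times, and the metal tolerance proteins are lowest at 12 h. This scale uses library totals. With TMM factors the median log2 change of the zinc transporters at 12 h against 0 h was -0.02.

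Nicotianamine synthase makes the metal chelator nicotianamine. Its 4 copies on chromosome 7 summed to 44.3, 1.09 and 5.96 FPKM at 0 h, 7.27, 9.18 and 6.43 FPKM at 12 h, and 61.0, 24.3 and 57.8 FPKM at 48 h. The 48 h libraries lay above all 12 h libraries, while the 0 h libraries differed from each other by more than the 12 h libraries did. The log2 change at 48 h against 12 h was 3.13 ± 1.05 and did not pass (edgeR adjusted p = 0.0632), although each of the 4 copies had an unadjusted p under 0.05 there. The most abundant copy, MS.gene050748, had 18.0, 0.417 and 2.43 FPKM at 0 h, 3.93, 4.25 and 3.46 FPKM at 12 h, and 20.8, 9.62 and 18.5 FPKM at 48 h.

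Of the 13 metal-nicotianamine transporters, 1 was called lower at 12 h than at 0 h (7.69%, beside 4.29% of all genes). The same gene was called higher at 48 h than at 12 h (7.69%, beside 6.96%). MS.gene06864, a copy of YSL3, which takes up metal-nicotianamine complexes around the veins in Arabidopsis, had 6.22, 13.9 and 8.21 FPKM at 0 h, 3.65, 3.004 and 2.77 FPKM at 12 h, and 10.8, 4.82 and 10.7 FPKM at 48 h. Its log2 change was -1.97 ± 0.43 at 12 h against 0 h (edgeR adjusted p = 0.0358) and 1.92 ± 0.42 at 48 h against 12 h (edgeR adjusted p = 0.0283). The first held only without 0 h replicate 1 or 48 h replicate 2, and the second was lost without any 12 h replicate or 48 h replicate 1 or 3; the adjusted p was at most 0.136 and 0.103. Neither passed with library totals (-1.57 and 1.44, edgeR adjusted p = 0.0737 and 0.0638). Summed over its copies, YSL3 did not pass (edgeR adjusted p = 0.0953 and 0.0714). YSL1 on chromosome 1 summed to 12.7, 4.61 and 5.15 FPKM at 0 h, 12.6, 18.5 and 6.55 FPKM at 12 h, and 16.9, 14.5 and 27.9 FPKM at 48 h, with a log2 change of 1.49 ± 0.48 at 48 h against 0 h (edgeR adjusted p = 0.0964). The most abundant YSL gene, MS.gene45566, a YSL7 copy, had 20.5, 9.23 and 16.5 FPKM at 0 h, 17.9, 16.7 and 18.2 FPKM at 12 h, and 10.8, 8.47 and 13.7 FPKM at 48 h.

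COPT transporters carry copper into the cytosol. None of the 10 members was called in any comparison, beside 5.88%, 1.14% and 10.6% of all genes. At an unadjusted p under 0.05 there were 3 at 12 h against 0 h, 0 at 48 h against 0 h, and 2 between 48 h and 12 h. Summed over 13 listed genes, copper transporter 6 on chromosome 4 had 102, 76.2 and 72.2 FPKM at 0 h, 85.3, 81.2 and 30.5 FPKM at 12 h, and 137, 103 and 156 FPKM at 48 h. Its 48 h libraries lay above all others, and the log2 change at 48 h against 12 h was 1.48 ± 0.36 (edgeR adjusted p = 0.0204). That was lost without 48 h replicate 1 or 3 (edgeR adjusted p = 0.0606 and 0.0591) and with library totals (0.93, edgeR adjusted p = 0.0805). Its most abundant copy, MS.gene30542, had 54.8, 37.5 and 30.0 FPKM at 0 h, 73.9, 67.2 and 25.6 FPKM at 12 h, and 55.9, 61.9 and 101 FPKM at 48 h.

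ATX1 is the cytosolic chaperone that hands copper to the pumps of the secretory pathway. The chromosome 1 group summed to 417, 382 and 487 FPKM at 0 h, 569, 538 and 744 FPKM at 12 h, and 462, 358 and 560.4 FPKM at 48 h, with log2 changes of 0.09 ± 0.23 and 0.16 ± 0.23 against 0 h. Within it, MS.gene005843, the most abundant copy, had 75.6, 101 and 10.1 FPKM at 0 h, 311, 299.8 and 460.1 FPKM at 12 h, and 96.3, 75.3 and 122 FPKM at 48 h. Its 12 h libraries stood above all others, but the test did not call it (edgeR adjusted p = 0.104 at 12 h against 0 h). The chromosome 7 group summed to 248, 192 and 148 FPKM at 0 h, 137, 121 and 107 FPKM at 12 h, and 271, 112 and 239.6 FPKM at 48 h. Its log2 change of -1.05 ± 0.30 at 12 h against 0 h (edgeR adjusted p = 0.0493) held only without 48 h replicate 1 or 2. Its change of 1.21 ± 0.30 at 48 h against 12 h (edgeR adjusted p = 0.022) was lost without any 12 h replicate or without 48 h replicate 1 or 3, and library totals gave -0.62 and 0.67 for the pair (edgeR adjusted p = 0.201 and 0.139).

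A single chromosome 7 copy, MS.gene91628, changed by far more than its group. It had 53.4, 29.1 and 24.7 FPKM at 0 h, 2.97, 0.438 and 0.558 FPKM at 12 h, and 179, 19.7 and 141 FPKM at 48 h, so that the 12 h libraries lay far below the rest. The log2 change was -5.12 ± 1.06 at 12 h against 0 h (edgeR adjusted p = 0.0316) and 6.86 ± 1.15 at 48 h against 12 h (edgeR adjusted p = 0.0113). The second held without each library in turn, and the first only without 12 h replicate 1 or 48 h replicate 2, with an adjusted p of at most 0.113. Without 12 h replicate 1 the values were -6.48 and 8.22.

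HIPP proteins pair a metal-binding domain like that of ATX1 with a lipid anchor. The 95 heavy metal domain members, 88 of them HIPP proteins, summed to 847, 734 and 713 FPKM at 0 h, 1366, 1139.5 and 1396 FPKM at 12 h, and 1308, 1142 and 1053 FPKM at 48 h, a scale on which every later library lay above every 0 h library. Per gene the family had no common direction. At 12 h, 3 were called higher than at 0 h (3.16%, beside 1.58% of all genes) and 4 lower (4.21%, beside 4.29%). At 48 h, 2 were higher than at 0 h (2.11%, beside 0.647%) and 0 lower (beside 0.497%). Relative to 12 h, 11 were higher at 48 h (11.6%, beside 6.96%) and 7 lower (7.37%, beside 3.61%). The medians of the log2 changes were -0.09, 0.04 and 0.33, and each changed sign with library totals (0.35, -0.07 and -0.17).

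HIPP 26 on chromosome 3 was higher at 12 h than at either other time. Its 4 copies summed to 78.4, 50.9 and 74.8 FPKM at 0 h, 338, 320.0 and 312 FPKM at 12 h, and 51.1, 34.8 and 49.8 FPKM at 48 h. Its log2 change was 1.82 ± 0.24 at 12 h against 0 h (edgeR adjusted p = 0.0022) and -2.32 ± 0.24 at 48 h against 12 h (edgeR adjusted p = 0.000624), and both held without each library in turn. Between 48 h and 0 h it was -0.51 ± 0.23, which did not pass (edgeR adjusted p = 0.222). With the like libraries summed, the first 2 values were 1.82 and -2.38 (sizes only).

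Of the 4 copies of HIPP 26, 3 moved alike. MS.gene014208 had 26.1, 15.8 and 22.7 FPKM at 0 h, 107, 91.6 and 102 FPKM at 12 h, and 13.7, 12.3 and 13.3 FPKM at 48 h (log2 change 1.83 ± 0.28 at 12 h against 0 h, edgeR adjusted p = 0.0107, lost without 12 h replicate 1 with 0.053). MS.gene68743 and MS.gene68144 reached 100.1 to 115 FPKM and 92.3 to 108 FPKM at 12 h. The fourth, MS.gene063097, had 5.14, 1.37 and 1.09 FPKM at 0 h, 8.29, 36.01 and 1.31 FPKM at 12 h, and 6.95, 0.205 and 7.52 FPKM at 48 h and was not called.

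HIPP 39 isoform X1 and X2 groups on chromosome 1 rose at 48 h. The isoform X1 group there summed to 32.6, 11.8 and 20.1 FPKM at 0 h, 80.3, 62.0 and 65.8 FPKM at 12 h, and 182, 156 and 144 FPKM at 48 h, so that the 3 times did not overlap. By the test, the log2 change was 1.27 ± 0.33 at 12 h against 0 h (edgeR adjusted p = 0.0355) and 3.005 ± 0.35 at 48 h against 0 h (edgeR adjusted p = 0.00549). The second held without each library in turn, while the first was lost without 0 h replicate 3, any 12 h replicate or 48 h replicate 1 (adjusted p of at most 0.118). With the like libraries summed, the change at 48 h was 3.03 (size only). The isoform X2 group on chromosome 1 summed to 31.6, 34.9 and 9.45 FPKM at 0 h, 37.6, 24.9 and 32.6 FPKM at 12 h, and 221, 63.6 and 189 FPKM at 48 h, a log2 change of 2.75 ± 0.54 at 48 h against 0 h (edgeR adjusted p = 0.0238). That call was lost without 0 h replicate 1 or 48 h replicate 1 or 3, with an adjusted p of at most 0.0839. The third HIPP 39 group on chromosome 1, with no isoform in its description, summed to 39.4, 36.5 and 37.6 FPKM at 0 h, 43.4, 29.6 and 52.3 FPKM at 12 h, and 47.9, 29.1 and 42.2 FPKM at 48 h. Its times overlapped, and it was not called (log2 change 0.15 ± 0.27 at 48 h against 0 h, edgeR adjusted p = 0.805).

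Most of these genes lie side by side. In the coordinates of the table, whose build is not given in the sources used here, 3 isoform X1 and X2 genes lie within 23.1 kb on chromosome copy 1.2, 3 within 30.3 kb on copy 1.3 and 3 within 15.7 kb on the unplaced scaffold 7052. A further X2 gene lies on copy 1.1. All 10 had a positive log2 change at 48 h against 0 h, between 1.87 and 3.47. In all 10 the scaled counts of the 48 h libraries lay above those of the 0 h libraries (beside 11.2% of all genes). Of the 10, 2 were called higher (beside 0.647% of all genes). The 10 are neighbours and copies that may share reads, so they are not 10 separate results. MS.gene60616 had 24.5, 8.81 and 16.3 FPKM at 0 h, 60.2, 46.7 and 48.1 FPKM at 12 h, and 138, 135 and 121 FPKM at 48 h (log2 change 3.07 ± 0.39 at 48 h against 0 h, edgeR adjusted p = 0.0265). MS.gene006227 had 36.8, 45.7 and 16.4 FPKM at 0 h, 73.6, 54.2 and 72.1 FPKM at 12 h, and 220.2, 157 and 176 FPKM at 48 h (log2 change 2.58 ± 0.37, edgeR adjusted p = 0.028). Leaving out 1 library held the call of MS.gene60616 in 4 and that of MS.gene006227 in 3 of 9 fits; the adjusted p was at most 0.0737 and 0.0953, and both were highest without 48 h replicate 1. This run of neighbours was singled out after its values were seen.

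**Figure D5:**
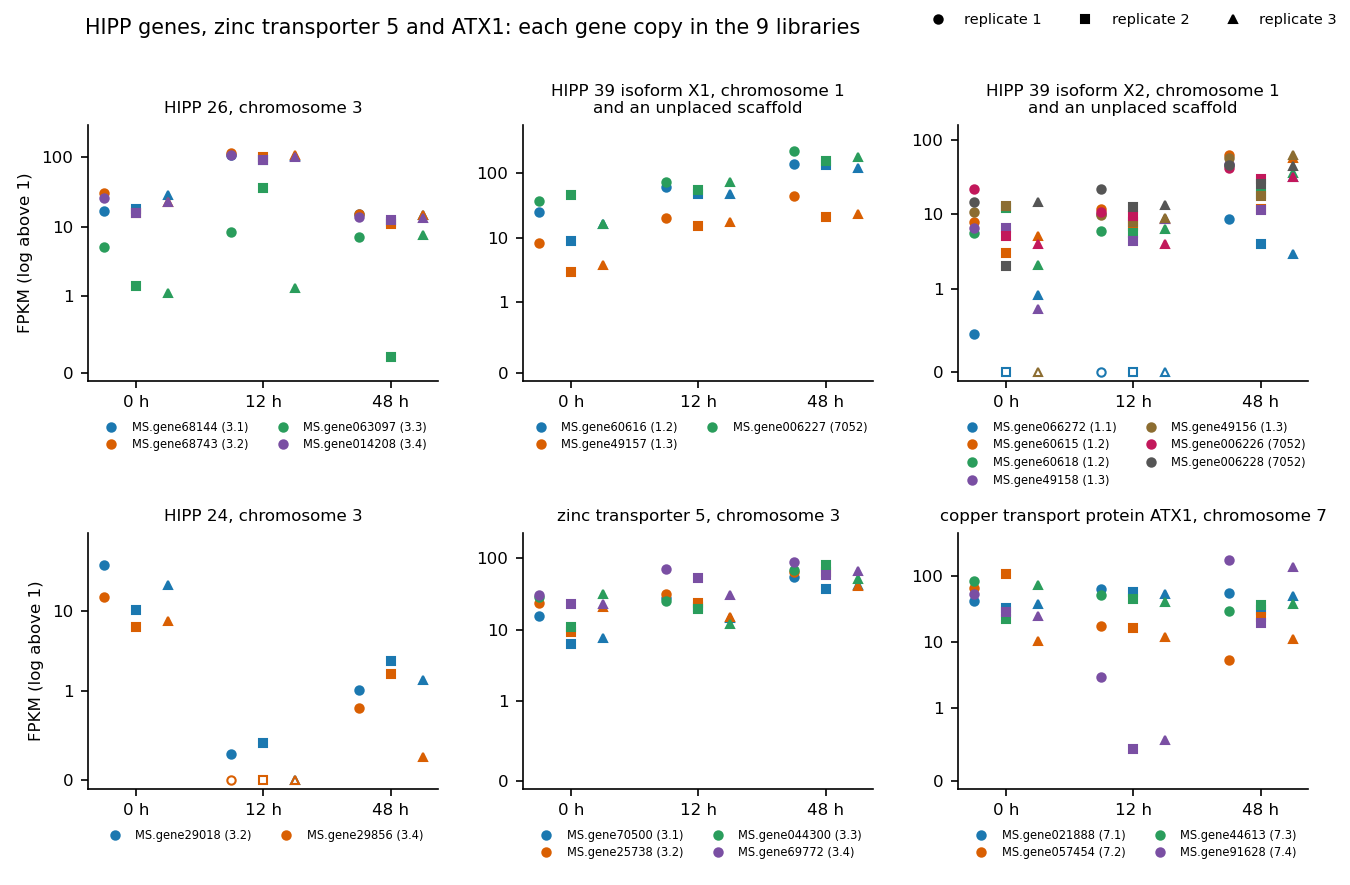
FPKM of each gene copy in each library at 0, 12 and 48 h, on an axis that is logarithmic above 1; colours are copies, marker shapes are replicates and open markers are genes with no count. For HIPP 26, 3 copies reach 91.6 FPKM or more only at 12 h; the HIPP 39 isoform X1 and X2 copies are highest at 48 h; and the ATX1 copy MS.gene91628 falls below 3 FPKM at 12 h.

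Other HIPP groups were lowest at 12 h. HIPP 39 on chromosome 7 summed to 74.0, 46.0 and 85.6 FPKM at 0 h, 14.6, 7.94 and 5.92 FPKM at 12 h, and 62.7, 67.8 and 50.5 FPKM at 48 h. The 12 h libraries lay apart from both other times, with log2 changes of -3.29 ± 0.42 at 12 h against 0 h and 3.19 ± 0.41 at 48 h against 12 h (edgeR adjusted p = 0.00189 and 0.00159). HIPP 6 on chromosome 7 had a similar course at a lower level, 8.59, 6.48 and 19.4 FPKM at 0 h, 2.45, 2.47 and 2.03 FPKM at 12 h, and 13.4, 18.8 and 12.7 FPKM at 48 h, with -2.78 ± 0.48 and 3.20 ± 0.49 (edgeR adjusted p = 0.00755 and 0.00314). All 4 values held without each library in turn, although that of HIPP 6 at 12 h was -2.04 without 0 h replicate 3. With the like libraries summed the 4 values were -3.32, 3.30, -2.78 and 3.33 (sizes only). The most abundant HIPP gene, MS.gene051452, is a HIPP 6 copy on chromosome 1 and was not called; it had 82.1, 106 and 86.9 FPKM at 0 h, 177, 128 and 188 FPKM at 12 h, and 61.1, 142 and 47.9 FPKM at 48 h.

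Further groups were called at 48 h against 12 h alone or with 12 h against 0 h and were less steady. HIPP 39 isoform X1 on chromosome 8 had log2 changes of -1.72 ± 0.41 at 12 h against 0 h and 2.03 ± 0.42 at 48 h against 12 h (edgeR adjusted p = 0.0274 and 0.0106); the second held without each library in turn, the first not without 0 h replicate 3 or any 12 h replicate (adjusted p of at most 0.105), nor with library totals (-1.25, edgeR adjusted p = 0.0525). HIPP 34 on chromosome 1 was lower at 48 h than at 12 h by -2.37 ± 0.52 (edgeR adjusted p = 0.0132, lost without 48 h replicate 1 with 0.056). HIPP 23 on chromosome 3 was higher by 2.02 ± 0.53 (edgeR adjusted p = 0.0275), a call lost without any 12 h replicate or 48 h replicate 1 or 3 (adjusted p of at most 0.106) and with library totals (1.47, edgeR adjusted p = 0.0668).

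HIPP 24 on chromosome 3 was low at both later times. It summed to 52.5, 16.6 and 31.2 FPKM at 0 h, 0.287, 0.418 and 0 FPKM at 12 h, and 1.83, 4.003 and 1.62 FPKM at 48 h, without overlap between any of the times. The fitted log2 change was -7.32 ± 1.12 at 12 h against 0 h (edgeR adjusted p = 0.00445), which held without each library in turn, at -8.03 without 12 h replicate 2 and -6.72 without 12 h replicate 3. Between 48 h and 0 h it was -3.64 ± 0.93 (edgeR adjusted p = 0.0496), which held only without 12 h replicate 3 or 48 h replicate 2 and had an adjusted p of up to 0.174. MS.gene29856 had 283, 104 and 124 counts at 0 h, none in any library of 12 h, and 14, 28 and 5 at 48 h. Against a floor of 3 counts per library, it was at least 85.7-fold lower at 12 h than at 0 h. Similar bounds applied to genes called at 48 h against 12 h. MS.gene066272, a HIPP 39 gene with no count at 12 h, was at least 64.8-fold higher at 48 h. MS.gene54998, a HIPP 21 gene with no count at 48 h, was at least 14.1-fold lower. Of 9 fits that leave out 1 library, the first call held in 3 and the second in 1. The edgeR adjusted p was at most 0.0892 and 0.110.

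Copies of a group did not always move together. Of 63 groups with at least 2 members, all copies had one sign of change in 37 at 12 h against 0 h, in 33 at 48 h against 0 h and in 34 at 48 h against 12 h. Copper transporter 6 shows the spread: at 48 h its copy on chromosome 4.4 had 3.02, 39.1 and 2.13 FPKM, and its copy on 4.3 had 45.4, 1.13 and 34.7 FPKM. Replicate 2 was high in the one and low in the other, and 48 h replicate 2 is also the library that stood apart in copy usage over all genes.

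Genes of neighbouring metal pathways, 163 tested of 456 listed, were described by the same fit. At 12 h, 1 was called higher (0.613%, beside 1.58% of all genes) and 9 lower (5.52%, beside 4.29%) than at 0 h. At 48 h, 0 were higher (beside 0.647%) and 1 was lower (0.613%, beside 0.497%) than at 0 h, and 9 were higher (5.52%, beside 6.96%) and 2 lower (1.23%, beside 3.61%) than at 12 h. These shares lie near or below those of all genes, so the genes named here are single cases. They are given as single copies only, whose values are uncertain. Ferric reduction oxidase 7, the chloroplast ferric reductase of Arabidopsis, was lowest at 12 h: MS.gene003207 had 292, 102 and 190.4 FPKM at 0 h, 25.2, 26.3 and 17.2 FPKM at 12 h, and 161, 271 and 213 FPKM at 48 h. Its log2 change was -3.46 ± 0.44 at 12 h against 0 h and 3.68 ± 0.44 at 48 h against 12 h (edgeR adjusted p = 0.00594 and 0.00409), and both held without each library in turn. Of 8 ferric reduction oxidase genes tested, 2 were called lower and 1 higher at 12 h than at 0 h (beside 4.29% and 1.58% of all genes). The higher one, MS.gene60600, had a log2 change of 1.64 (edgeR adjusted p = 0.0456). That call held in 3 of 9 fits that leave out 1 library, with an adjusted p of at most 0.16. An iron superoxide dismutase, MS.gene068221, had 102, 62.6 and 88.7 FPKM at 0 h, 12.0, 10.8 and 15.04 FPKM at 12 h, and 17.1, 38.5 and 8.99 FPKM at 48 h. It was lower at 12 h than at 0 h by -3.12 ± 0.57 on the log2 scale (edgeR adjusted p = 0.0201), a call lost without any 12 h replicate (adjusted p of at most 0.0945).

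Plastid iron permease (TIC 21, MS.gene93000) had a log2 change of -2.62 ± 0.52 at 12 h against 0 h (edgeR adjusted p = 0.0279), and the ferroportin-type carrier MS.gene21013 had -1.65 ± 0.35 (edgeR adjusted p = 0.0325). The first was lost without 0 h replicate 1 or 2, any 12 h replicate or 48 h replicate 1, and the second held only without 0 h replicate 3 or 48 h replicate 2, with an adjusted p of at most 0.120 and 0.134. The second was also lost with library totals (-1.28, edgeR adjusted p = 0.0777). ILR3, a bHLH factor of the iron deficiency response in Arabidopsis, had several genes with different courses. MS.gene87270 had 9.49, 4.41 and 5.17 FPKM at 0 h, no count at 12 h, and 3.50, 3.47 and 4.50 FPKM at 48 h. Against a floor of 3 counts per library it was at least 113-fold lower at 12 h than at 0 h. That bound is for a single copy and not for ILR3 summed over its copies. MS.gene006766 had 2.71, 4.20 and 1.81 FPKM at 0 h, 9.72, 9.16 and 10.4 FPKM at 12 h, and 0.920, 0.915 and 0.583 FPKM at 48 h, and was lower at 48 h than at 12 h by -3.10 ± 0.47 on the log2 scale (edgeR adjusted p = 0.00824); the calls of both genes held without each library in turn.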

How the data were processed

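Poly(A) RNA of alfalfa leaves was measured in 9 libraries, 3 per time. The authors deposited 1 table holding raw read counts in whole numbers and FPKM for each gene and library, with no pooling. HISAT and StringTie are named, without version, per the submitters' processing notes; the genome build is not given in the sources used here. FPKM values that the authors deposited as 1e-04 have a count of 0 and were read as 0.

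Groups and replicates follow the titles. All genes that reached 1 FPKM in 3 or more libraries were fitted together with edgeR 4.0.16 (quasi-likelihood test, TMM factors, 1 mean per time; R 4.3.3), and p-values were adjusted over all 50878 genes. Summed copies were fitted likewise over 18292 groups, as were related genes within the gene fit. The code was tested on simulated data with a smaller spread than that of these libraries. That test does not measure how many changes are found or falsely called at the spread seen here. Alternatives used DESeq2 1.42.0, limma 3.58.1 on log2(FPKM + 1) and log2(FPKM + 0.1), library totals, median-of-ratios scaling, other filters, the replicate block and left-out libraries. Ranges are called apart on counts divided by TMM-scaled totals.

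The members and lists were chosen with earlier results of these data known. For each family, the text names the called gene and summed group of smallest adjusted p per comparison and the gene of highest mean FPKM; other genes and groups were named after their values were seen. Bounds on fold changes use a floor of 3 counts per library and cover counting error only. Whether counting used strand is not given in the sources used here.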

Additional observations from a re-analysis of the deposited data

How the results depend on the processing

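Among single members, the 16 called at 12 h and 3 at 48 h against 0 h, and the 29 at 48 h against 12 h, became 46, 28 and 60 with DESeq2, and 34, 10 and 54 with limma on log2(FPKM + 1). Over all genes tested, the main fit called 2991, 582 and 5378. DESeq2 called 9088, 5579 and 12403 of them, and limma on log2(FPKM + 1) 8256, 2037 and 12845. At 48 h against 0 h, limma on log2(FPKM + 0.1) called 8, a minimum of 5 FPKM 5, no filter 1, a fit of only those 6 libraries 0 (35 at an unadjusted p under 0.05) and summed copies 6 of 86 groups. Over all genes fitted, those gene fits called 1507, 694, 158 and 0. No filter left 16 members at 48 h against 12 h, and 3332 over all genes. Leaving out 1 library gave 3 to 22, 0 to 9 and 7 to 34. The first count was 3 without 12 h replicate 1 or 2, and 7 without 12 h replicate 3. Over all genes it was 867, 916 and 1922 without 12 h replicates 1, 2 and 3 in turn. The second was 0 without 12 h replicate 1 or 2 or 48 h replicate 1, 1 without 0 h replicate 3, 12 h replicate 3 or 48 h replicate 3, and 9 without 48 h replicate 2. Without 12 h replicate 1 or 3 the last was 8, without 12 h replicate 2 it was 7, and it came to 10 or 18 when 48 h replicate 1 or 3 was dropped. For summed copies (13, 6 and 24 called) it gave 8 to 19, 2 to 10 and 11 to 30: 8 without 12 h replicate 1 or 2 in the first; 2, 10 and 3 in the second when 48 h replicates 1, 2 and 3 were dropped in turn; and in the last 12 without 12 h replicate 1 or 2, 15 without 12 h replicate 3 and 11 without 48 h replicate 1. With libraries of like copy usage summed, the lone 12 h library is assumed to vary like the others. That fit therefore cannot decide which calls hold. The cause of these changes was not tested. Summed copies under library totals, the block, like libraries summed and left-out libraries were added after seeing the data.

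The replicate numbers in the titles did not pair the libraries: deviations of same-numbered libraries correlated at -0.029 to 0.021, and 1 of 9 compared libraries correlated best with its own number. The replicate block left 4, 0 (39 at an unadjusted p under 0.05) and 5 members called, and 10, 3 and 17 summed groups. Over all genes the block left 817, 0 and 1771 called. Of the 48 called changes of members 9 held under the block and 35 under library totals, and of the 43 of summed groups 30 and 31. The spread between libraries limits single copies most: the biological coefficient of variation in the fit was 0.843 for genes and 0.551 for summed copies.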
